A study of Mus musculus with 6 samples.

Results

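The genes encoding kinesins, the motors that walk along microtubules, were examined in CD4+YFP+CD25+ Tregs of KO mice (Foxp3Cre Zfp335fl/fl) and of WT mice (Foxp3Cre). A gene was included when its symbol in the deposited count table was Kif or Kifc followed by a digit, whatever its expression, which gave 34 of the 13709 rows. By known function, 13 were placed among the mitotic kinesins, 14 among the transport kinesins, and 7 in neither class. Bulk RNA-Seq had been performed on 3 WT and 3 KO samples on the C57BL/6 background. Tregs are CD4+ T cells that keep immune responses in check and are defined by the transcription factor Foxp3. In the Foxp3Cre allele, carried by both genotypes, Cre recombinase and YFP are made from the Foxp3 locus, so that Zfp335, a zinc finger protein, is deleted in Foxp3-expressing cells of KO mice while other cells of the mouse keep the gene. The methods of the study give 2-week-old mice and Foxp3Cre as the WT genotype, whereas the labels give only wild type. The labels named both lymph nodes and spleen as the source of the cells, and they did not say whether a sample was 1 mouse or a pool, so the p-values measure the spread between these samples.

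Kinesins convert ATP into movement along microtubules or into the disassembly of microtubule ends. One set of kinesins is made mainly in dividing cells, where it separates the spindle poles, moves chromosomes, and builds the midzone at which the daughter cells part. Another set works between divisions and carries vesicles, mitochondria, and endosomes, mostly toward the cell periphery, while cytoplasmic dynein walks the other way. In T cells, microtubules also turn the centrosome and the secretory organelles toward a bound target cell.

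The libraries held 32032631 to 40728419 counts, at which 3 counts corresponded to 0.0747 to 0.0913 CPM (the unit used here, a count scaled to library size with TMM factors), a floor that covers counting error only. Zfp335, the deleted gene, was at 101, 94.3 and 103 CPM in WT replicates 1, 2 and 3 and at 37.0, 37.9 and 40.2 CPM in KO replicates 1, 2 and 3. It was lower in every KO sample (log2 fold change -1.37 ± 0.07 SE, adjusted p = 2.14e-05). Among the WT samples, replicate 3 stood apart from the others. Its median squared difference from them over genes was 25.0 to 25.4 times that of counting noise alone. The same ratio of squared differences was 9.995 between WT replicates 1 and 2 and 5.26 to 6.05 among KO samples. A gene was called changed in the edgeR quasi-likelihood test when its fold change exceeded 1.5, its p was under 0.05, and its Benjamini-Hochberg adjusted p over the 13594 genes tested was under 0.1. Across those genes, 24.4% were called, with 11.9% higher and 12.5% lower in KO Tregs, and the median log2 fold change was -0.04.

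All 34 kinesin genes passed the filter on low counts, and 20 of them were called, with 16 higher and 4 lower in KO Tregs. That is 58.8% of the kinesin genes beside 24.4% of all genes. Only the mitotic class had fold changes that were all of the same sign. All 13 mitotic kinesins rose, with log2 fold changes from 1.08 to 2.20 and a median of 1.73. Of the 14 transport kinesins, 1 rose (Kif3a) and 4 fell (Kif1b, Kifc2, Kifc3, and Kif13a), and their median was -0.29. Of the remaining 7, Kif24 and Kif2a rose, and the median was 0.21. Called in either direction were 35.7% of the transport and 28.6% of the other kinesins, beside 24.4% of all genes. The 3 KO values did not overlap the 3 WT values for 27 kinesin genes, beside 53.8% of all genes: all 13 mitotic, 10 transport, and 4 other kinesins. A fit testing directly against a fold change of 1.5 (glmTreat), which calls 12.4% of all genes, called 18 kinesin genes, and a cutoff of 0.05 on the adjusted p alone, whatever the fold change, which calls 38.6%, called 25.

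**Figure D1:**
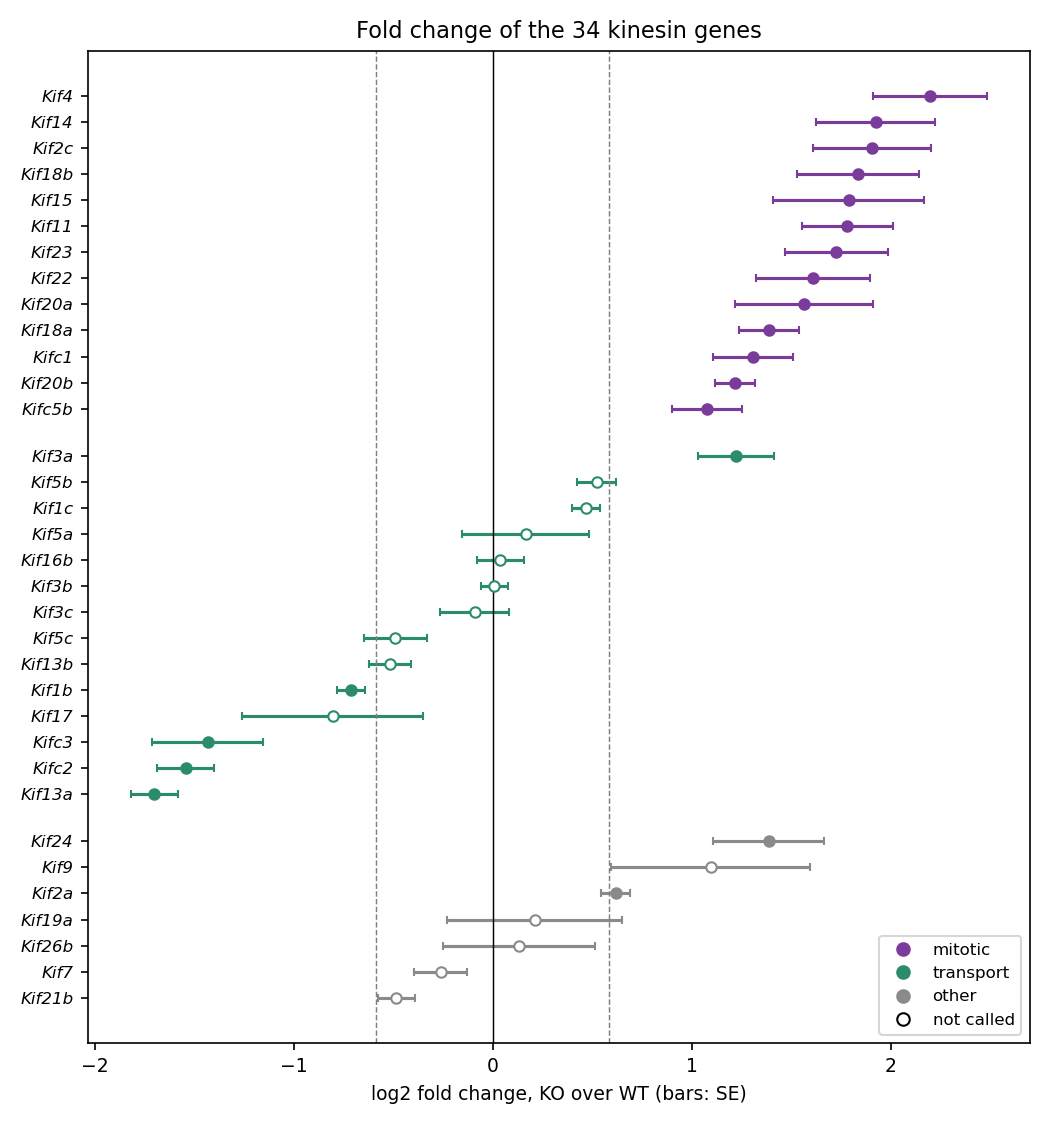
Log2 fold change of KO over WT (x axis) for each of the 34 kinesin genes (rows), with bars for the SE, filled points for called genes, open points for genes not called, and dashed lines at a fold change of 1.5. The 13 mitotic kinesins lie between 1.08 and 2.20, and the transport kinesins spread from -1.70 to 1.22.

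Among the mitotic kinesins, the motors that set up the bipolar spindle rose in KO Tregs. Kif11, the motor that slides antiparallel microtubules to push the spindle poles apart, was at 49.8, 57.1 and 28.1 CPM in WT replicates 1, 2 and 3 and at 154, 154 and 157 CPM in KO replicates 1, 2 and 3. Its lowest KO value was more than any WT value, and the KO mean was 3.44 times the WT mean (log2 fold change 1.78 ± 0.23 SE, adjusted p = 0.000851). Kif15, which shares the task of keeping the poles apart, was at 39.4, 44.5 and 13.1 CPM in WT and 111, 114 and 109.8 CPM in KO samples. The KO values lay within a few CPM of each other, whereas WT replicate 3 was far under the other WT samples (log2 fold change 1.79 ± 0.38 SE, adjusted p = 0.00787). Kifc1 moves toward the minus end and gathers microtubules into poles. It was at 46.5, 41.6 and 25.2 CPM in WT and 95.9, 92.4 and 92.1 CPM in KO samples, again without overlap (log2 fold change 1.31 ± 0.20 SE, adjusted p = 0.00185). Kifc5b, a close copy of Kifc1, was at 15.2, 14.4 and 10.2 CPM in WT and 31.4, 23.6 and 29.2 CPM in KO samples (log2 fold change 1.08 ± 0.18 SE, adjusted p = 0.00248). Kifc1 shared 17.0% of its 100-base transcript windows with Kifc5b, so the split of reads between this pair is uncertain.

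The motors that act on chromosomes and on the microtubules attached to them rose as well. Kif4, which binds chromosome arms and later shortens the midzone, had the largest fold change of the kinesin genes. It was at 23.8, 22.5 and 9.97 CPM in WT and 85.4, 87.2 and 86.0 CPM in KO samples, a 4.59-fold difference of the means (log2 fold change 2.20 ± 0.29 SE, adjusted p = 0.000923). The exons of Kif4 overlap Pdzd11 over 15.1% of their bases, and whether the counting used the strand is not stated. Kif22, another chromosome arm motor, was at 35.0, 36.0 and 15.2 CPM in WT and 92.5, 83.9 and 86.7 CPM in KO samples (log2 fold change 1.61 ± 0.29 SE, adjusted p = 0.00357). Kif2c does not walk but takes apart microtubule ends at the centromere. Its levels of 14.4, 16.6 and 6.61 CPM in WT and 49.5, 43.4 and 48.2 CPM in KO samples did not overlap (log2 fold change 1.91 ± 0.29 SE, adjusted p = 0.00191). Kif18a, which damps the swinging of chromosomes at the spindle equator, was at 7.28, 9.01 and 6.31 CPM in WT and 18.7, 20.1 and 20.3 CPM in KO samples (log2 fold change 1.39 ± 0.15 SE, adjusted p = 0.000442). Kif18b, which limits the length of astral microtubules, was at 22.0, 26.1 and 9.67 CPM in WT and 69.9, 67.2 and 69.4 CPM in KO samples (log2 fold change 1.84 ± 0.31 SE, adjusted p = 0.00277).

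The motors of the central spindle and cytokinesis completed the class. Kif23, the motor subunit of centralspindlin, was at 33.4, 35.6 and 16.3 CPM in WT and 98.9, 92.7 and 90.8 CPM in KO samples (log2 fold change 1.73 ± 0.26 SE, adjusted p = 0.00165). Kif20a carries the chromosomal passenger complex to the midzone. It was at 45.7, 52.2 and 17.3 CPM in WT and 118, 114 and 108 CPM in KO samples, with 29.3% of its exon bases overlapping Cdc23 (log2 fold change 1.56 ± 0.34 SE, adjusted p = 0.00923). Kif20b, which acts in the late steps of cytokinesis, was at 25.6, 25.1 and 21.5 CPM in WT and 56.5, 51.7 and 59.7 CPM in KO samples. It had the smallest SE of the class (log2 fold change 1.22 ± 0.10 SE, adjusted p = 0.000135). Kif14, which places citron kinase at the midbody, was at 15.9, 16.2 and 6.58 CPM in WT and 50.9, 48.5 and 47.9 CPM in KO samples (log2 fold change 1.93 ± 0.30 SE, adjusted p = 0.002).

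**Figure D2:**
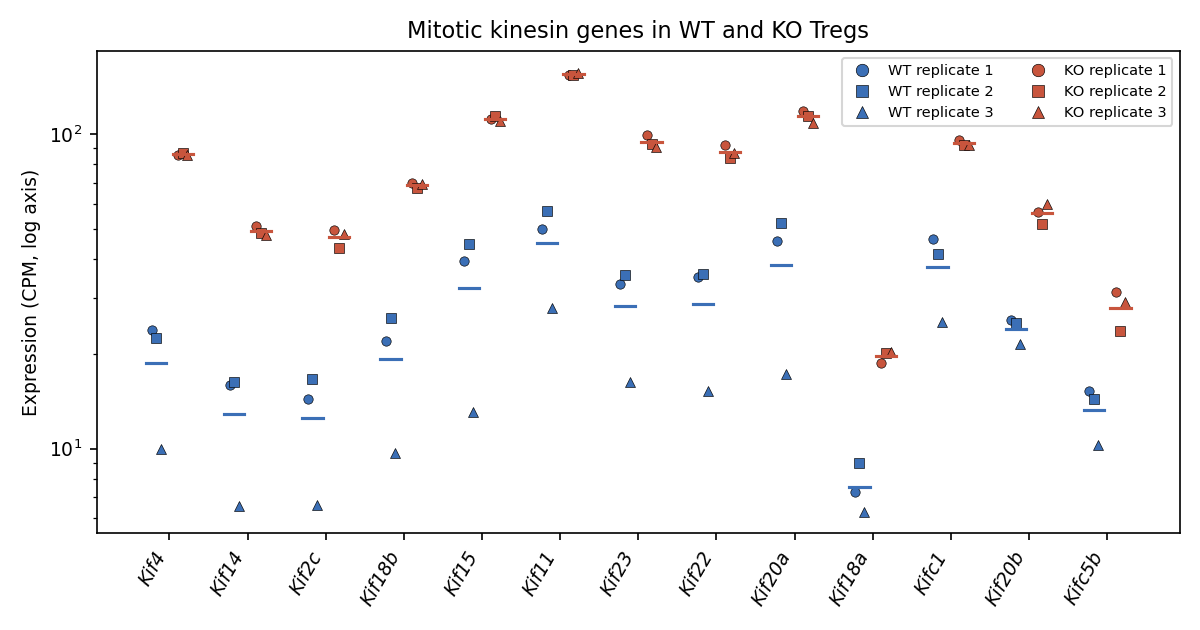
Expression in CPM (log axis) of the 13 mitotic kinesins in each sample, ordered by fold change, with symbols for the replicates and short lines for the genotype means (n = 3). No KO value reaches down to a WT value of the same gene, and WT replicate 3 is the lowest sample for every gene.

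WT replicate 3 was the lowest of the 6 samples for all 13 mitotic kinesins, at 31.1% to 84.8% of the mean of WT replicates 1 and 2 with a median of 43.1%. Without it, all 13 were still called higher, with log2 fold changes from 0.92 to 1.89 and a median of 1.41, and no mitotic kinesin moved by more than 0.379 on the log2 scale. All 7 markers of cycling cells examined rose too, beside 11.9% of all genes. Mki67, the usual marker of proliferating cells, was at 441, 445 and 199 CPM in WT and 1568, 1549 and 1507 CPM in KO samples (log2 fold change 2.09 ± 0.28 SE, adjusted p = 0.00101). The others by size of change included Ccna2 (2.11), Ccnb1 (1.94), and Cdk1 (1.92), and WT replicate 3 was the lowest sample for all 7. Kif11 in CPM equaled 11.3%, 12.8% and 14.1% of Mki67 in WT replicates 1, 2 and 3 and 9.82%, 9.94% and 10.4% in KO replicates 1, 2 and 3. Every KO ratio was under every WT ratio, a difference that was not tested. In bulk samples, a larger share of dividing cells and more kinesin RNA per dividing cell cannot be told apart, and the part of cycling in these changes was not tested.

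The promoters of the kinesin genes were searched for a pair of short motifs known from genes expressed late in the cell cycle. The cell cycle genes homology region (CHR, searched as TTTGAA) is the element bound by MuvB-containing complexes, and the CCAAT box (searched as CCAAT) is bound by NF-Y. Both were searched on both strands in the 300 bases from 250 upstream to 50 downstream of the RefSeq start on GRCm38.p6. Of the kinesin genes, 26 matched a promoter entry: 12 mitotic, 9 transport, and 5 other. A CHR lay anywhere in the window in 11 of 12 mitotic and 0 of 9 transport kinesins, beside 15.2% of the 10738 genes of the table with a promoter entry. Within 30 bases of the start, a window chosen after the positions were seen, it lay in 8 of 12 mitotic and 0 of 9 transport kinesins, beside 2.38% of the genes of the table. Kif26b was the only other kinesin with a CHR, also within 30 bases. Kif18a was the mitotic kinesin with no match, and the CHR of Kifc5b began at base 30 of the transcript and ran past the narrower window. A CCAAT box was found in 8 of 12 mitotic and 3 of 9 transport kinesins, beside 43.0% of the genes of the table. A proximal CHR together with a CCAAT box was present in Kif4, Kif11, Kif18b, Kif22, Kif23, and Kifc1, that is in 6 of 12 mitotic kinesins, and also in Kif26b, 1 of the 5 other kinesins, which was not called (log2 fold change 0.13). The pair was present in 1.10% of the genes of the table. These matches describe letters in a window, and binding was not measured here.

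The 5 mitotic promoters below each held a CHR close to the start and a CCAAT box, and that of Kif13a, the kinesin that fell the most, held neither. The promoters of Kif3a and Kif24, which rose, had no CHR match either. Each line shows 120 bases before and 30 from the start on, 5′ to 3′ in the direction of transcription, with the CHR (TTTGAA or its complement) and the CCAAT box (or its complement) in capitals. Kif11 lies at chr19:37376262-37376411 on the plus strand, and Kif4 at chrX:100625945-100626094 on the plus strand. On the minus strand are Kif23 at chr9:61946770-61946919, Kif18b at chr11:102925095-102925244, Kifc1 at chr17:33890604-33890753, and Kif13a at chr13:46929689-46929838.
Kif11: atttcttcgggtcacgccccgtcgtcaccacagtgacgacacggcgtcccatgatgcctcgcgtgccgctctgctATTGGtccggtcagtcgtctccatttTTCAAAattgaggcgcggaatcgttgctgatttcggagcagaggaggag
Kif4: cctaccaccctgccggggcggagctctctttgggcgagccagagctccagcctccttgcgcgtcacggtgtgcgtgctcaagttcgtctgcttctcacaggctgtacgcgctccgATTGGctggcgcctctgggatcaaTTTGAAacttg
Kif23: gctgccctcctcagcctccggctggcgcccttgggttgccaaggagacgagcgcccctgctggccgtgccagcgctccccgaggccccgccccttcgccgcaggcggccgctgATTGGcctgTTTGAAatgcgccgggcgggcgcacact
Kif18b: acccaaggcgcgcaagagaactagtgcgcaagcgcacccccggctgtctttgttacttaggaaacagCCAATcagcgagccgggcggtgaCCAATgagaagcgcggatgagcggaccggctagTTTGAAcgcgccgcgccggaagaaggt
Kifc1: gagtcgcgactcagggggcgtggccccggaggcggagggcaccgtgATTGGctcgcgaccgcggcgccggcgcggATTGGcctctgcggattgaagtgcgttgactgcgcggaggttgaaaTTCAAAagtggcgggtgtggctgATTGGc
Kif13a: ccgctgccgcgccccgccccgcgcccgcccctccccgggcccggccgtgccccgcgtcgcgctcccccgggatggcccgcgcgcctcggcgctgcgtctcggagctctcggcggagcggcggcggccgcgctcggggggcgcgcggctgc

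In Kif11 the CHR began 19 bases before the start and the CCAAT box 45 bases before it. In Kif23 both sat at the start, the CCAAT box 7 bases before it and the CHR at base 3 of the transcript. Kif18b had a pair of CCAAT boxes, 53 and 30 bases before the start, and its CHR at base 4. In Kif4 the CHR lay deepest in the transcript of these genes, at base 20.

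**Figure D3:**
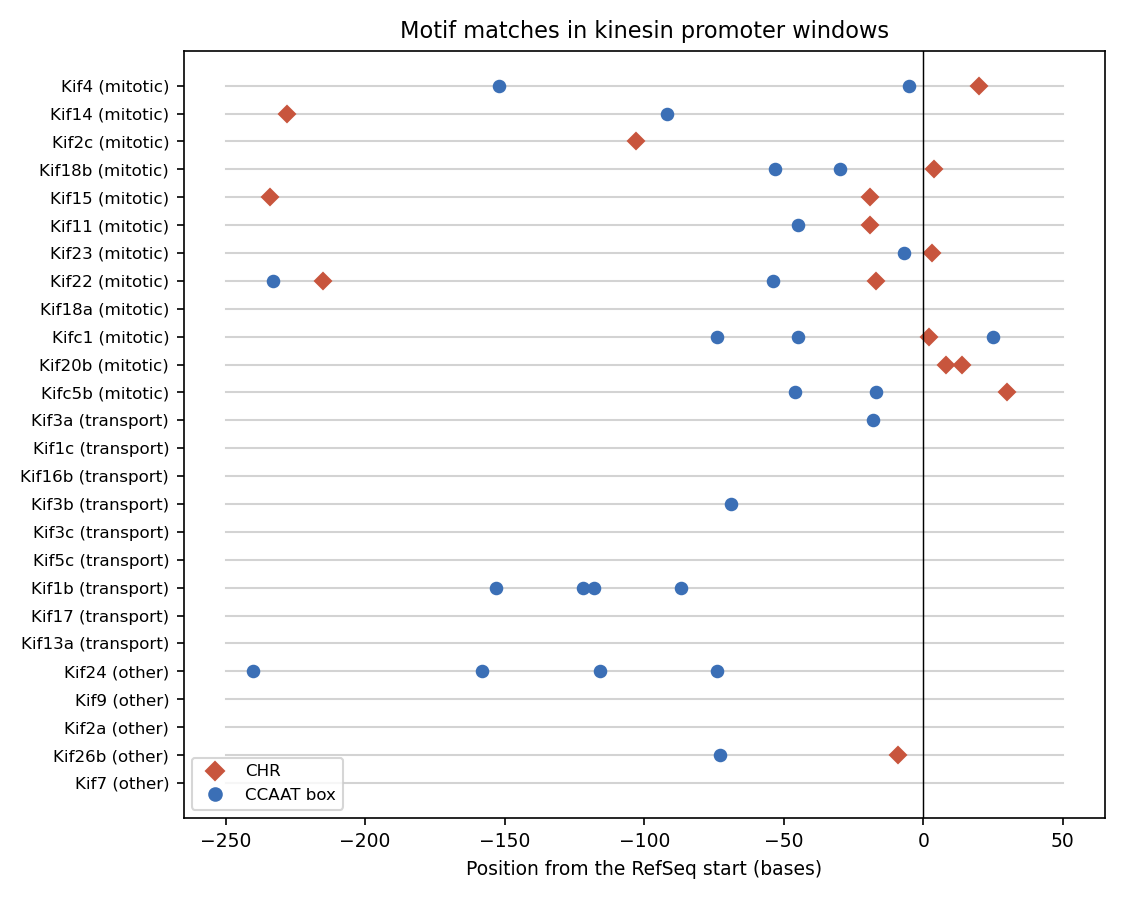
Position of CHR (diamonds) and CCAAT box (circles) matches on either strand, in bases from the RefSeq start (x axis), for the 26 kinesin genes with a promoter entry (rows, grouped by class and ordered by fold change). CHR matches appear in 11 of 12 mitotic and in 0 of 9 transport kinesins.

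The transport kinesins moved both ways. Kif13a, which carries cargo of recycling endosomes, had the largest decrease of the kinesin genes. It was at 38.8, 35.3 and 33.8 CPM in WT replicates 1, 2 and 3 and at 10.6, 12.5 and 10.01 CPM in KO replicates 1, 2 and 3, so the WT mean was 3.25 times the KO mean (log2 fold change -1.70 ± 0.12 SE, adjusted p = 5.88e-05). Kifc2, a minus-end motor known mainly from neurons, was at 34.3, 32.8 and 26.3 CPM in WT and 9.83, 12.3 and 9.93 CPM in KO samples. The groups were well apart, with a WT mean 2.92 times the KO mean (log2 fold change -1.54 ± 0.14 SE, adjusted p = 0.000228). Kifc3, a minus-end motor known from epithelial junctions and apical transport, was at 12.9, 13.7 and 6.58 CPM in WT and 4.38, 3.96 and 3.97 CPM in KO samples. WT replicate 3 was nearest to the KO values without reaching them (log2 fold change -1.43 ± 0.28 SE, adjusted p = 0.0053). The exons of Kifc2 overlap Cyhr1 over 4.14% of their bases. Kif1b, a carrier of mitochondria and vesicles, fell by less, from 95.6, 97.6 and 87.1 CPM in WT to 56.7, 56.4 and 57.9 CPM in KO samples (log2 fold change -0.71 ± 0.07 SE, adjusted p = 0.000295).

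Kif3a was the transport kinesin that rose. With Kif3b and the accessory subunit Kifap3 it forms the heterotrimeric kinesin that serves cilia and cargo transport. Kif3a was at 4.62, 6.82 and 4.57 CPM in WT and 13.4, 11.7 and 12.3 CPM in KO samples, a 2.34-fold difference of the means (log2 fold change 1.22 ± 0.19 SE, adjusted p = 0.00201). Its usual partner Kif3b was at 135, 129 and 146 CPM in WT and 139, 138 and 135 CPM in KO samples, with overlapping groups (log2 fold change 0.01 ± 0.07 SE, adjusted p = 0.944). Kifap3 was at 4.74 ± 0.320 (WT) and 4.26 ± 1.10 (KO) CPM (SD, n = 3; adjusted p = 0.655). Per kilobase of transcript, Kif3a was at 6.12%, 9.41% and 5.57% of Kif3b in WT replicates 1, 2 and 3 and at 17.2%, 15.1% and 16.3% in KO replicates 1, 2 and 3. The ratio was thus higher in every KO sample, although Kif3a remained well under Kif3b. Kif3c, the alternative partner of Kif3a, was at 14.3 ± 3.45 (WT) and 13.4 ± 0.477 (KO) CPM (adjusted p = 0.718), and Kif17, the homodimeric member of the family, at 0.909 ± 0.384 and 0.519 ± 0.0258 CPM (adjusted p = 0.203).

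The heavy chains of conventional kinesin were not called. Kif5b, the widely expressed one, was at 137, 153 and 176 CPM in WT and 212, 233 and 224 CPM in KO samples. The KO values lay over all WT values, but the fold change was under 1.5 (log2 fold change 0.52 ± 0.10 SE, adjusted p = 0.00476). Without WT replicate 3 its log2 fold change was 0.62 and it was called. Per kilobase of transcript, the chains known mainly from neurons were far lower than Kif5b, at 1.12 ± 0.0368 CPM per kb for Kif5c and 0.307 ± 0.0611 CPM per kb for Kif5a in WT samples beside 25.8 ± 3.26 for Kif5b. In CPM, Kif5c was at 7.70 ± 0.252 (WT) and 5.49 ± 0.574 (KO) CPM (log2 fold change -0.49, adjusted p = 0.0419), and Kif5a at 1.93 ± 0.385 and 2.16 ± 0.519 CPM (adjusted p = 0.72). Kif1c, a vesicle motor, was at 73.1, 65.3 and 68.2 CPM in WT and 97.5, 92.5 and 96.3 CPM in KO samples, without overlap but under the fold cutoff (log2 fold change 0.47 ± 0.07 SE, adjusted p = 0.00161). Kif16b, which moves early endosomes, was at 33.8, 26.1 and 29.7 CPM in WT and 33.5, 28.1 and 30.5 CPM in KO samples. Its groups overlapped (log2 fold change 0.04 ± 0.12 SE, adjusted p = 0.829). Kif13b, the relative of Kif13a, was at 49.3, 42.1 and 51.9 CPM in WT and 36.3, 31.2 and 32.7 CPM in KO samples (log2 fold change -0.52 ± 0.11 SE, adjusted p = 0.00652). Of the omissions of single samples, that of WT replicate 2 brought it past the fold cutoff, at -0.60.

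**Figure D4:**
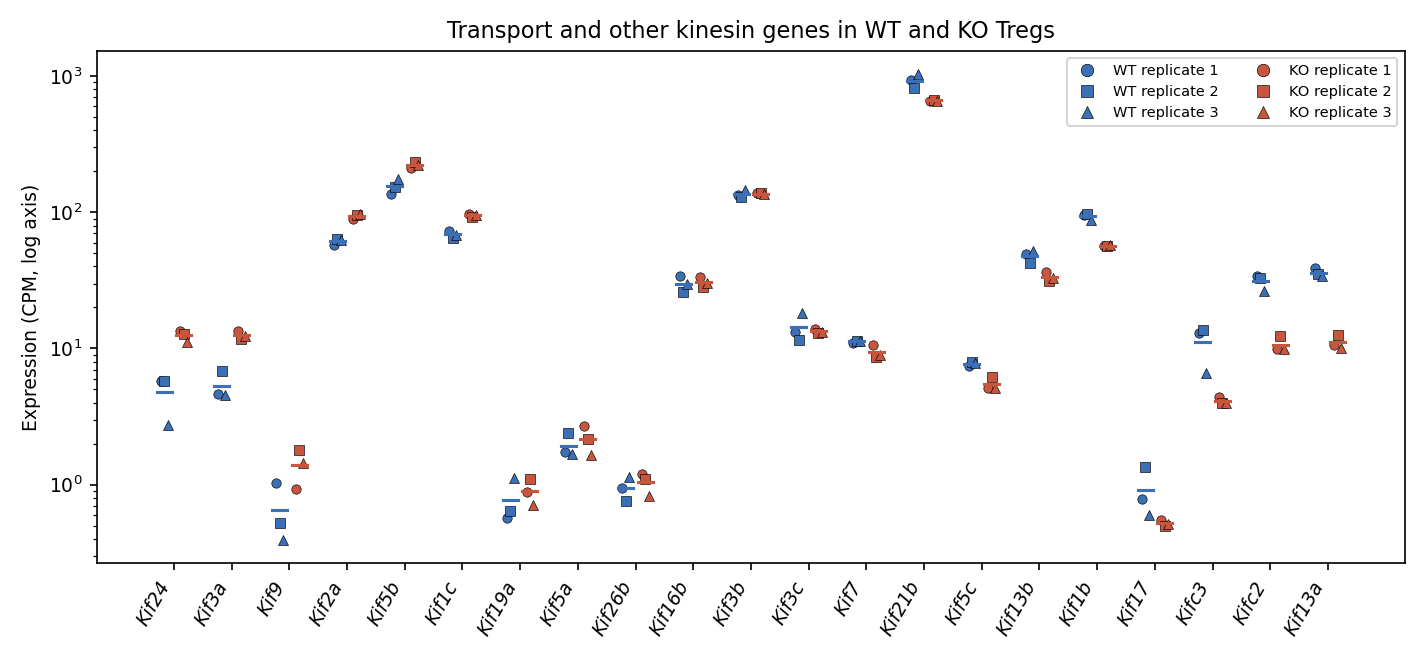
Expression in CPM (log axis) of the 14 transport and 7 other kinesins in each sample, ordered by fold change, with symbols for the replicates and short lines for the genotype means (n = 3). The groups of Kif13a, Kifc2 and Kif1b lie apart with KO lower, and those of Kif3b and Kif16b overlap.

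Kif21b, which restrains microtubule growth and is needed in T cells to turn the centrosome toward the target cell, had the highest per-length level of the kinesin genes in both genotypes. It was at 935, 815 and 1037 CPM in WT and 655, 673 and 663 CPM in KO samples. Every KO value was under every WT value, but the fold change was under 1.5 (log2 fold change -0.49 ± 0.09 SE, adjusted p = 0.0049). Kif24, which acts at centrioles and restrains the growth of cilia, was at 5.79, 5.75 and 2.73 CPM in WT and 13.5, 12.7 and 11.2 CPM in KO samples (log2 fold change 1.39 ± 0.28 SE, adjusted p = 0.00625). Kif2a, which takes apart microtubule ends in dividing and resting cells, was at 57.8, 63.6 and 63.1 CPM in WT and 89.2, 96.3 and 97.7 CPM in KO samples. The groups did not overlap, and the change was just over the cutoff (log2 fold change 0.62 ± 0.07 SE, adjusted p = 0.000629); it was not called without WT replicate 1 (0.58), and 19.2% of its exon bases overlap Dimt1. Kif7, a Hedgehog pathway component, was at 11.3 ± 0.176 (WT) and 9.40 ± 1.07 (KO) CPM (adjusted p = 0.163). Kif9, known from motile cilia, was at 1.03, 0.518 and 0.391 CPM in WT and 0.931, 1.79 and 1.45 CPM in KO samples. These overlapped (log2 fold change 1.09 ± 0.50 SE, adjusted p = 0.122), and of the omissions of single samples, that of WT replicate 1 alone led to a call, at 1.61. Kif19a, also of cilia, and Kif26b, which has lost ATPase activity, were between 0.570 and 1.20 CPM in every sample, with overlapping groups (adjusted p = 0.742 and 0.819).

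Levels were also compared between genes as CPM per kilobase (kb) of the longest protein-coding transcript, without a test. Kif21b was at 102 ± 12.2 CPM per kb in WT and 72.8 ± 0.973 CPM per kb in KO samples (SD, n = 3), far over the next gene in both genotypes. In WT samples Kif5b (25.8 ± 3.26) and Kif3b (24.2 ± 1.54) followed and did not differ beyond their spread, and then came Kifc1 (16.0 ± 4.73) and Kif22 (13.6 ± 5.53), which did not either. In KO samples the order after Kif21b was Kif22 (41.5 ± 2.07), Kifc1 (39.7 ± 0.902), Kif5b (37.0 ± 1.73), Kif11 (32.1 ± 0.309), and Kif20a (30.9 ± 1.43), with Kif3b in place 8. The lowest kinesin gene was Kif26b in both genotypes.

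Summed over the 13 mitotic kinesins, the per-length level was 108, 113 and 53.5 CPM per kb in WT replicates 1, 2 and 3 and 290, 275 and 280 CPM per kb in KO replicates 1, 2 and 3. The KO sums lay over every WT sum, and WT replicate 3 had the lowest. Summed over the 14 transport kinesins, it was 103 ± 1.78 CPM per kb in WT and 103 ± 0.913 CPM per kb in KO samples, a difference smaller than the spread between replicates with TMM scaling. With library totals alone it was 105 ± 1.84 and 102 ± 0.906 CPM per kb, and every WT sum was over every KO sum. The 7 other kinesins, led by Kif21b, summed to 117 ± 11.9 and 95.6 ± 1.52 CPM per kb. The mitotic kinesins thus made up 28.9% ± 9.03 of the summed kinesin level in WT and 58.6% ± 0.882 in KO samples, and the transport kinesins 33.2% ± 2.88 and 21.5% ± 0.363 (SD, n = 3). Kif21b alone held 31.3%, 27.9% and 39.5% in WT replicates 1, 2 and 3 and 14.8%, 15.5% and 15.2% in KO replicates 1, 2 and 3.

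**Figure D5:**
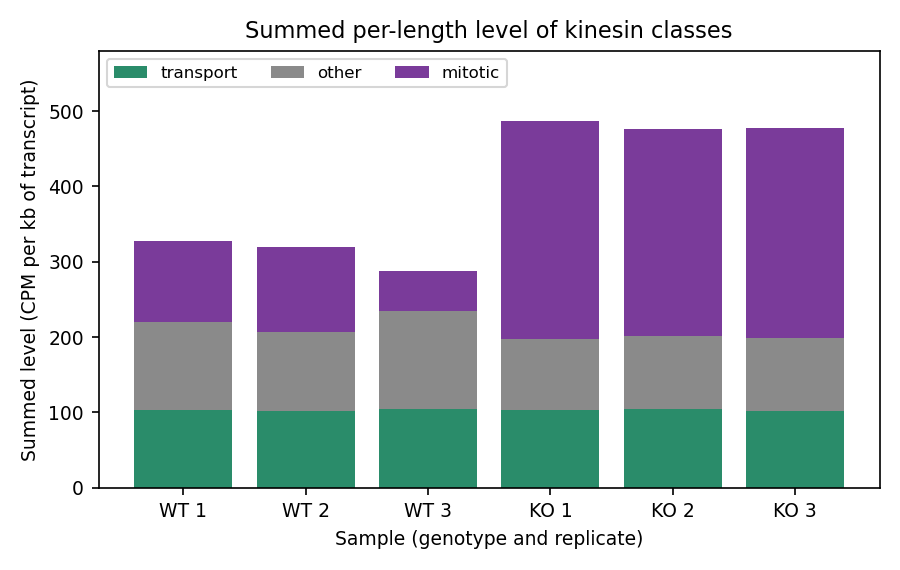
Summed level of transport, other, and mitotic kinesins (CPM per kb of transcript, stacked) in each of the 6 samples. With TMM scaling, the transport sum is 103 CPM per kb on average in both genotypes, whereas the mitotic sum is 91.4 in WT and 281 in KO samples.

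The proteins that work with kinesins were described by the same counts. Of 20 spindle partners of the mitotic kinesins, 19 rose in KO Tregs, beside 11.9% of all genes, with a median log2 fold change of 1.72, and WT replicate 3 was the lowest sample for those 19. Cenpe, a kinesin of the kinetochore that has no Kif symbol, rose by 1.94 on the log2 scale (SE 0.27). Racgap1, which forms centralspindlin with Kif23, rose by 1.67, and Prc1, the microtubule bundler that recruits Kif4, rose by 1.67. Tpx2, which binds Kif11 at the spindle, rose by 1.95. Cit, the citron kinase that Kif14 places, rose by 1.73, and Aurkb and Incenp, subunits of the complex that Kif20a carries, by 1.63 and 1.37. The largest changes of the list were in Bub1 (2.18), Cep55 (2.07), Hmmr (2.03), and Birc5 (2.004). The exception was Numa1, which organizes spindle poles and is nuclear between divisions, at 392 ± 39.0 (WT) and 346 ± 5.25 (KO) CPM (log2 fold change -0.18, adjusted p = 0.121).

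Of 20 kinesin light chains and cargo adaptors, 3 were called, all lower, and the median log2 fold change was -0.15. That is 15% of the list, beside 24.4% of all genes called and 12.5% called lower. The light chains join the Kif5 heavy chains to cargo. Klc3 was at 30.3, 31.6 and 32.8 CPM in WT and 18.3, 19.5 and 18.0 CPM in KO samples (log2 fold change -0.76 ± 0.09 SE, adjusted p = 0.000538). Klc4 fell by less (log2 fold change -0.62 ± 0.15 SE, adjusted p = 0.0128) and was not called without WT replicate 3 (-0.55), without KO replicate 2 (-0.51), or with glmTreat. Klc2 (-0.55) and Klc1 (-0.10, adjusted p = 0.449) were not called, although Klc2 was called without KO replicate 1 (-0.61) and with library totals alone (-0.59). Mapk8ip1, a scaffold that binds light chains, had a mean of 3.67 ± 0.820 CPM in WT Tregs but 1.09 ± 0.299 CPM in KO Tregs and fell (log2 fold change -1.74 ± 0.33 SE, adjusted p = 0.00487).

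Of 25 dynein and dynactin genes tested, 1 was called: Bicd1, an adaptor that links dynein to cargo, fell from 9.26 ± 0.420 CPM in WT to 4.53 ± 0.302 CPM in KO samples (log2 fold change -1.03 ± 0.15 SE, adjusted p = 0.00149). That is 4% of the list, beside 24.4% of all genes, and the median of the list was 0.21. Without WT replicate 1, and likewise without WT replicate 2, 2 genes of the list were called.

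Of 16 tubulins tested, 9 rose and 2 fell, with a median of 0.73, beside 11.9% of all genes that rose and 12.5% that fell. The largest increases were in Tubb3, at 0.790 ± 0.252 (WT) and 5.82 ± 1.02 (KO) CPM (2.88), Tubb6 (1.48), Tube1 (1.37), and Tubb4b (1.23), a beta-tubulin that went from 147 ± 14.8 to 346 ± 11.5 CPM. Tubg2 (-2.05), a gamma-tubulin, and Tubb4a (-0.77) fell. Tubulin genes are close copies of each other, so their counts are uncertain.

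Markers of the sorted cells and of others that the sort could have held were summed. The 6 Treg and T cell markers were all in the table and summed to 3927 to 5104 CPM in WT and 3309 to 3405 CPM in KO samples. Of them, 2 fell, Foxp3 and Ikzf2, beside 12.5% of all genes. Foxp3 was at 738, 642 and 1190 CPM in WT and 460, 472 and 463 CPM in KO samples, so WT replicate 3 raised its WT mean. WT replicate 3 stood apart here too. Relative to the mean of WT replicates 1 and 2, it had 172% of Foxp3, 181% of Ctla4 and 144% of Il2ra. For Ikzf2, Cd4 and Cd3e it had 79.9% to 97.6%, and for the 4 erythroid genes 14.7% to 29.6%. Myeloid markers (4 of 5 in the table) summed to 16.6 to 27.8 CPM in WT and 46.3 to 53.7 CPM in KO samples. Of the 4, 3 rose, beside 11.9% of all genes. The neutrophil genes S100a8 and S100a9 were at 0 in every WT sample and summed to 3.57 to 5.42 CPM in KO samples. In single-cell data from younger mice, the paper reports both genes as high in a Treg cluster that accumulated in KO mice. Which cells held them in these bulk samples was not tested. B cell markers summed to 16.0 to 18.1 CPM in WT and 10.8 to 11.0 CPM in KO samples, CD8 T cell markers to 9.32 to 13.2 and 12.0 to 12.7 CPM, NK cell markers to 1.71 to 2.58 and 3.39 to 5.05 CPM, and erythroid markers to 22.9 to 98.9 and 42.3 to 47.8 CPM. The part of these cells in the kinesin changes was not tested.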

How the data were processed

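Bulk RNA-Seq was analysed in 3 WT and 3 KO samples, grouped by the genotype in the labels. The methods of the study name SOAPnuke for read filtering, HISAT2 for alignment to mm10 with a single alignment reported for each read, and StringTie for quantification. The authors deposited whole-number counts per gene, without normalization. How these counts were obtained, the annotation, and the use of strand are not given in the sources used here. Reads of near-identical or overlapping genes may therefore be assigned to the wrong gene. No row summed to fewer than 60, so rarely counted genes were already absent.

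Counts were tested with R 4.3.3 and edgeR 4.0.16 (filterByExpr with a minimum count of 10, TMM, quasi-likelihood F-test, two-sided, no covariate). The SE was the size of the log2 fold change divided by the square root of F. The cutoffs were the study's. The test was checked on simulated data. The kinesin genes, their classes, and the partner lists were chosen with earlier results of these data known. Values per sample are given for called kinesins, for the 5 uncalled ones with the highest per-length level, and for those whose call depends on 1 library. Of other genes, up to 4 called a list and direction and direct partners are named. Each replicate counted as 1 sample. Replicates differed by more than counting noise, which does not show whether they came from separate mice. Transcript lengths came from GENCODE M21, promoters from RefSeq. Alternatives were DESeq2 1.42.0, other scalings and filters, glmTreat, a replicate block, and omission of each sample.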

Additional observations from a re-analysis of the deposited data

How the results depend on the processing

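Across 8 alternative settings and the omission of each sample, all 13 mitotic kinesins, 18 to 19 spindle partners and 7 cycling markers were called higher, and 18 to 25 kinesin genes were called, against 20 as reported. With an adjusted p under 0.05 and no fold cutoff, 38.6% of all genes were called. That rule called 9 of 14 transport kinesins, 8 of 20 light chains and adaptors, and 11 of 25 dynein and dynactin genes. Of the other kinesins, 1 was called with library totals alone and 1 with glmTreat, since Kif2a (0.58 with library totals, adjusted p = 0.594 with glmTreat) lost its call. With glmTreat, which calls 12.4% of all genes, 7 of 16 tubulins were called, and Kif1b was not (adjusted p = 0.114). Without WT replicate 3, 14 of 16 tubulins were called, and 3667 of the 13663 genes tested. Without WT replicate 2, 12 tubulins were called, against 11 as reported. Leaving out single samples gave 1 to 2 dynein and dynactin genes, 5 to 6 transport kinesins and 20 to 21 kinesin genes. Kif9 was called among genes with at least 10 counts in every sample (1.10, adjusted p = 0.0825). Among the kinesins and the other genes named, signs turned only for 6 with small changes. With library totals alone, Kif16b was -0.0013 and Kif3b -0.030. Over the omissions of single samples, Kif16b ran from -0.054 to 0.14, Kif3b from -0.035 to 0.055, Kif3c from -0.23 to 0.11, Kif26b from -0.0099 to 0.28, Kif5a from -0.018 to 0.34 and Kifap3 from -0.37 to 0.0091. Below 0 were also Kif16b without KO replicate 1 (-0.028) and Kif3b without WT replicate 1 (-0.0035). The cause was not tested.

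Deviations from the group means were hardly correlated between WT and KO samples of equal number (r of 0.038, 0.040 and -0.012), so the numbers do not pair them. With a replicate block, 20 kinesin genes, 13 of them mitotic and higher, 5 transport and 2 other, were called, and 3190 of all genes instead of 3318. Counting limits matter for Kif9, Kif17, Kif19a and Kif26b, which lay near 1 CPM.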
